A study of Rattus norvegicus with 9 samples.

Results

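The probe sets of the Wnt signalling pathway were examined in the ventral spinal cord of embryonic day 14 rats, in pools carrying mutant or wild-type human SOD1 and in a negative control pool. A probe set was included when the platform annotation gave it 1 gene symbol for a Wnt ligand, a frizzled receptor (Fzd), Lrp5, Lrp6, Ryk, Ror1, Ror2, a dickkopf (Dkk), a secreted frizzled-related protein (Sfrp, Frzb), Wif1, a dishevelled (Dvl), an axin, Apc, Gsk3b, beta-catenin (Ctnnb1), a Tcf7 family member or Lef1. This gave 72 of the 31042 probe sets that are not array controls, for 43 of 14217 genes named by a probe set with 1 symbol. Of the 72, 17 belonged to ligands, 14 to receptors and co-receptors, 16 to secreted antagonists, 15 to cytoplasmic signal transducers and 10 to TCF/LEF transcription factors.

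Secreted Wnt proteins bind frizzled receptors together with the co-receptors Lrp5 or Lrp6. In the canonical branch this stops the destruction complex of Axin, Apc and Gsk3b from marking beta-catenin for degradation, and beta-catenin then acts with TCF/LEF factors on target genes. Dickkopf and Sfrp proteins, Frzb and Wif1 act outside the cell, most of them as antagonists. In the embryonic spinal cord, Wnt1 made at the dorsal midline promotes progenitor division and dorsal identity, while Fzd3 and Ryk take part in the guidance of axons along the cord.

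The series held 4 pools labelled G93R mutant hSOD1, 4 pools labelled wildtype hSOD1 and 1 pool labelled SDneg, the negative control, each of 5 embryos and each on 1 Affymetrix rat array. SOD1 codes for a superoxide dismutase, and inherited mutations in it can lead to amyotrophic lateral sclerosis. The labels name the transgenic pools Roth (mutant) and Chan (wild-type), without giving the meaning of these names. The mutation cannot be told apart from anything else that differs between them, which may include the rat line or the site of insertion. The description of the negative control also calls its embryos positive, and no promoter of either transgene is given in the sources used here.

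The array medians spanned 31.0 to 33.9, and any pair of arrays correlated at 0.976 to 0.986 across probe sets. The 3'/5' ratio of beta-actin, a sign of RNA quality, was 6.98 to 7.98 in mutant pools, 8.19 to 19.2 in wild-type pools, with 6.66 in the negative control (exact two-sided permutation p = 0.0286 for mutant against wild-type, the smallest that 70 arrangements allow), with 19.2 in wild-type replicate 2. The GAPDH ratio was 2.49 to 2.587 in mutant pools, 2.585 to 3.56 in wild-type pools, with 2.68 in the negative control, and these groups overlapped (exact two-sided permutation p = 0.0571). Neuronal markers were present: all 7 neuronal and all 6 motor neuron markers on the array passed the filter described next. Of the ventral lists, 2 of 5 floor plate and 3 of 4 ventral progenitor genes passed it. Shh, Foxa1, Foxa2 and Olig2 lay below it. Of the markers of cells that could come along in the dissection, 0 of 4 erythroid, 0 of 7 microglial, 2 of 6 endothelial, 3 of 12 mesenchymal and 2 of 5 sensory ganglion and Schwann cell precursor genes passed it. The last list summed to 348 to 411 in mutant pools and 362 to 464 in wild-type pools, with 343 in the negative control, most of it from Scn9a and Pou4f1. The motor neuron markers summed to 3380 to 4827 in mutant pools, 3034 to 3825 in wild-type pools, with 3186 in the negative control, most of it from Prph. Between mutant and wild-type, 5 of these 6 markers had estimates above 0 (median log2 difference 0.26), against 53.7% of all tested probe sets. Isl1, with the smallest p of the list, had 0.45 (limma unadjusted p = 0.00723, adjusted p = 0.929). Of 6 tested neural progenitor markers 2 were above 0. Slc1a3, with the smallest p of that list, had −0.38 (limma unadjusted p = 0.00478, adjusted p = 0.929). Its groups did not overlap, as at 2.95% of all tested probe sets. Their part in the results on Wnt genes was not tested. Of the dorsal midline and dorsal progenitor markers 3 of 6 passed, and the sum of all 6 was 99.9 to 148 in mutant pools, 108 to 150.4 in wild-type pools, with 141 in the negative control.

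All levels are intensities on the authors' linear scale. Differences were fitted by limma after 8.25, the pseudocount, was added to each intensity and log2 was taken. A probe set was tested when its mean log2 value over the 9 arrays exceeded the 40th percentile, equal to an intensity of about 17.3. Of the 72 members 28 probe sets of 22 genes passed, and 44 did not. Passing were 4 of 17 ligand, 7 of 14 receptor, 7 of 16 antagonist, 9 of 15 transducer and 1 of 10 TCF/LEF probe sets. The 21 genes without a tested probe set were the ligand genes Wnt2, Wnt4, Wnt5a, Wnt5b, Wnt8b, Wnt9a, Wnt10a, Wnt11 and Wnt16, the receptor genes Fzd4, Fzd5, Fzd6 and Lrp5, the antagonist genes Dkk2 and Sfrp5, and Axin2, Dvl2, Dvl3, Lef1, Tcf7 and Tcf7l1. A low value on 1 probe set does not show that the gene is silent, since probe sets of the same gene differed widely, as with Ctnnb1 below.

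**Figure D1:**
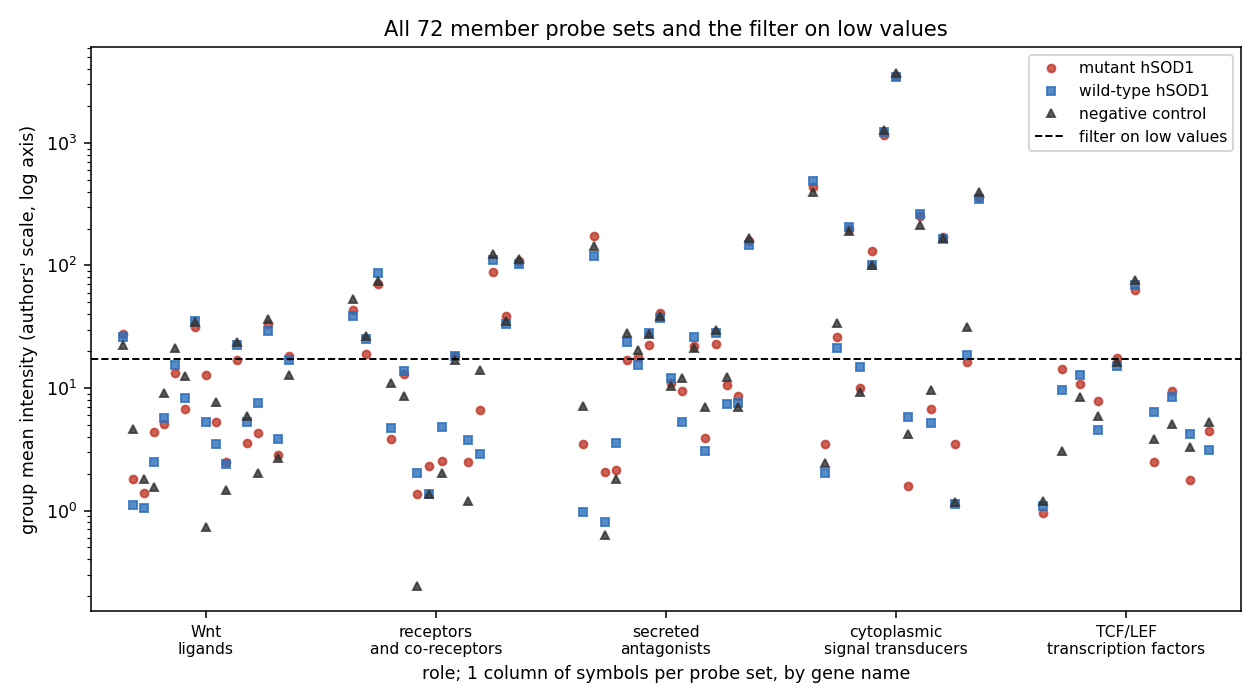
Mean intensity of each of the 72 member probe sets (log axis) in the mutant, wild-type and negative control pools, by role, with a dashed line at the filter intensity of about 17.3. The filter acts on the mean log2 value, so a probe set with uneven pools, such as that of Dvl3, can have a mean near the line and not pass; 28 probe sets passed.

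Mutant pools were compared with wild-type pools first, which sets the mutant transgene against an unmutated human SOD1. None of the 28 tested members passed at an adjusted p of 0.05 (limma, smallest adjusted p = 0.929), against 3 of all 18625 probe sets, 0.0161%. At an unadjusted p under 0.05 stood 3 members, against 4.93% of all tested probe sets. Dkk3 and Ctnnb1, each on 1 probe set, had higher estimates in mutant pools (2.75% of all), and Fzd3 had a lower one (2.18% of all). Estimates were above 0 at 13 of 28 members, with a median of −0.03 on the log2 scale, and at 53.7% of all tested probe sets, with a median of 0.01. In bulk tissue, fewer cells of a type and less RNA per cell cannot be told apart.

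The precision sets what these data can say about the pathway. The 95% interval of the difference between mutant and wild-type lay within 1 log2 unit of 0 for 27 of the 28 members. The exception was Tcf7l2. Over all tested probe sets the share was 98.6%. Within 0.5 log2 units the interval lay for 11 of 28 (70.8% of all). The median half-width of the interval was 0.38 for the members and 0.29 for all tested probe sets. These bounds apply to intensities with the pseudocount added, where 1 log2 unit is a 2-fold change either way. At low intensity they depend in part on the pseudocount. With a pseudocount of 2.06, the intervals of Dkk3 1397754_at (−1.32 to 0.22) and Apc 1387837_at (−0.29 to 1.06) also passed 1 log2 unit. With a pseudocount of 33.0, the Tcf7l2 interval lay within 1 log2 unit of 0 (−0.90 to 0.43). Within groups the median SD was 0.26 on the log2 scale for the members and 0.18 for all tested probe sets, and among members it ran from 0.05 for Sfrp1 (1371861_at) and Ctnnb1 (1373470_at) to 0.88 for Tcf7l2.

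**Figure D2:**
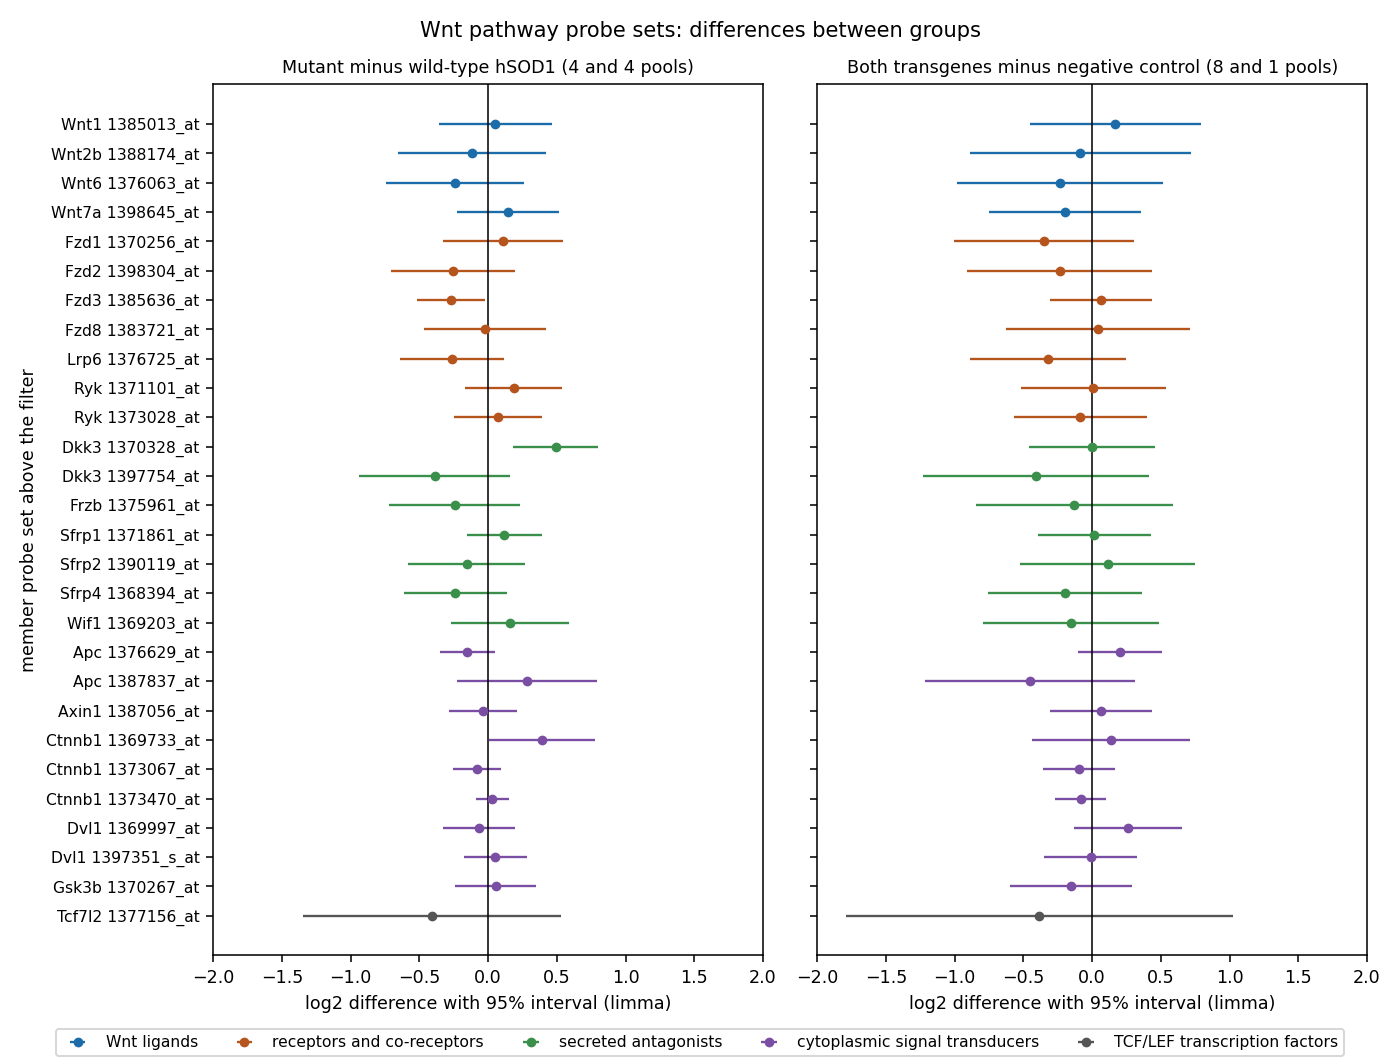
log2 differences with 95% limma intervals for the 28 member probe sets above the filter, coloured by role: mutant minus wild-type hSOD1 on the left, the mean of both transgenes minus the negative control on the right. On the left, the intervals of Dkk3 1370328_at, Ctnnb1 1369733_at and Fzd3 lie off 0 before adjustment; on the right every interval spans 0.

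Among ligands, Wnt7a, a Wnt of the neural tube, had intensities of 27.4, 28.6, 40.9 and 36.3 in mutant pools 1 to 4, 34.1, 33.4, 29.1 and 21.1 in wild-type pools 1 to 4, with 36.7 in the negative control (1398645_at). The groups overlapped, and the log2 difference between mutant and wild-type was 0.14 (95% interval −0.23 to 0.51). Its other probe set, 1380958_at, lay below the filter, between 0.768 and 11.3. Wnt1 had 20.4 to 37.6 in mutant pools, 19.6 to 35.3 in wild-type pools, with 22.5 in the negative control, a log2 difference of 0.05 (−0.36 to 0.46) for mutant minus wild-type. Wnt2b and Wnt6 varied most among the tested ligands, with within-group SDs of 0.44 and 0.38 on the log2 scale. Wnt2b ran from 17.9 to 38.5 in mutant and from 21.9 to 50.7 in wild-type pools, with 34.5 in the negative control. Wnt6 (1376063_at) ran from 12.4 to 21.5 in mutant and from 10.8 to 33.3 in wild-type pools, with 23.6 in the negative control. In both genes the highest of the 9 arrays was wild-type replicate 2, the array with the highest actin ratio. The log2 differences were −0.11 (−0.65 to 0.42) for Wnt2b and −0.24 (−0.74 to 0.26) for Wnt6, but 0.05 and −0.08 without that array. Over all single arrays left out, Wnt2b ranged from −0.27 without wild-type replicate 1 to 0.07 without mutant replicate 4. Wnt6 reached −0.45 without wild-type replicate 1 (interval −0.89 to −0.01). The second Wnt6 probe set, 1391914_at, did not exceed 8.42 on any array.

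Wnt4 lay below the filter and is named because its values stood out once they were seen. It had 11.8, 15.4, 19.7 and 4.504 in mutant pools, 3.28, 5.11, 5.46 and 7.34 in wild-type pools, with 0.740 in the negative control. Mutant replicate 4 lay within the wild-type range, and the negative control was the lowest of the 9 arrays. The negative control was the lowest at 9.19% of all tested probe sets, a share not counted below the filter. Without the filter, the log2 difference between mutant and wild-type was 0.59 (95% interval 0.07 to 1.10, limma adjusted p = 0.922). At intensities near or below the pseudocount, that size is set in part by the pseudocount.

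Among receptors, Fzd3 was the 1 tested member whose mutant and wild-type pools did not overlap; groups did not overlap at 2.95% of all tested probe sets (1.24% with mutant pools lower), and 1 of 28 members is 3.57%. Fzd3 had 68.5, 62.5, 77.1 and 73.9 in mutant pools, 89.4, 87.4, 85.8 and 83.6 in wild-type pools, with 74.3 in the negative control. All 4 mutant pools lay below all 4 wild-type pools, and the negative control lay within the mutant range. The means were 70.5 ± 6.42 in mutant and 86.6 ± 2.47 in wild-type pools (SD, n = 4 each). The log2 difference, fitted with the pseudocount added, was −0.27 (limma SE 0.114, adjusted p = 0.929, 95% interval −0.52 to −0.02). Among the 6 pools whose titles carry the tag le2, of unstated meaning, it was −0.24 (−0.57 to 0.08), and without wild-type replicate 2 it was −0.27. With the replicate number as a block in the fit, the interval was −0.54 to 0.0018, so it spanned 0 there as well as among the le2 pools. The array has a single Fzd3 probe set with 1 symbol, so the difference has no second probe set to set beside it.

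The other receptors overlapped between the groups. Lrp6, the canonical co-receptor, had 81.8, 96.0, 99.9 and 77.1 in mutant pools, 85.1, 155, 118 and 85.5 in wild-type pools, with 124 in the negative control. Wild-type replicate 2 was the highest, and the log2 difference was −0.26 (95% interval −0.64 to 0.11), or −0.10 without that array. Ryk, a Wnt receptor of growing axons, was measured above the filter by both of its probe sets, with log2 differences between mutant and wild-type of 0.19 (−0.16 to 0.54) and 0.07 (−0.25 to 0.39). Fzd1, Fzd2 and Fzd8 had estimates of 0.11, −0.25 and −0.02, with intervals that reached 0.54, −0.70 and −0.47 at their farther ends. Fzd2 ran from 16.1 to 24.9 in mutant and from 17.5 to 38.0 in wild-type pools, again with wild-type replicate 2 as the highest. Without that array the Fzd2 difference was −0.08.

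Among secreted antagonists, Dkk3, a divergent member of the dickkopf family, had the smallest p of all members. Its probe set 1370328_at had 127, 201, 199 and 172 in mutant pools, 107, 121, 121 and 131 in wild-type pools, with 144 in the negative control. Mutant replicates 2, 3 and 4 lay above every wild-type pool and above the negative control, while mutant replicate 1 lay inside the wild-type range. The means were 175 ± 34.7 in mutant and 120.2 ± 10.01 in wild-type pools (SD, n = 4 each). The log2 difference, fitted with the pseudocount added, was 0.49 (limma SE 0.142, unadjusted p = 0.00421, adjusted p = 0.929, 95% interval 0.18 to 0.80). It was 0.58 among the le2 pools, 0.50 without wild-type replicate 2 and 0.63 without mutant replicate 1, with an adjusted p of 0.385 in limma in the last case. Adding the actin ratio to the fit gave 0.52.

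The second Dkk3 probe set above the filter, 1397754_at, had the opposite sign. It had 5.29, 24.0, 19.6 and 19.1 in mutant pools, 18.3, 32.5, 22.0 and 21.6 in wild-type pools, with 28.3 in the negative control. The log2 difference was −0.39 (95% interval −0.94 to 0.16), and −0.11 without mutant replicate 1, the lowest array. The other Dkk3 probe sets, 1377468_at and 1394655_at, lay between 0.279 and 5.87 on every array. The Dkk3 difference therefore rests on 1 of 4 probe sets.

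**Figure D3:**
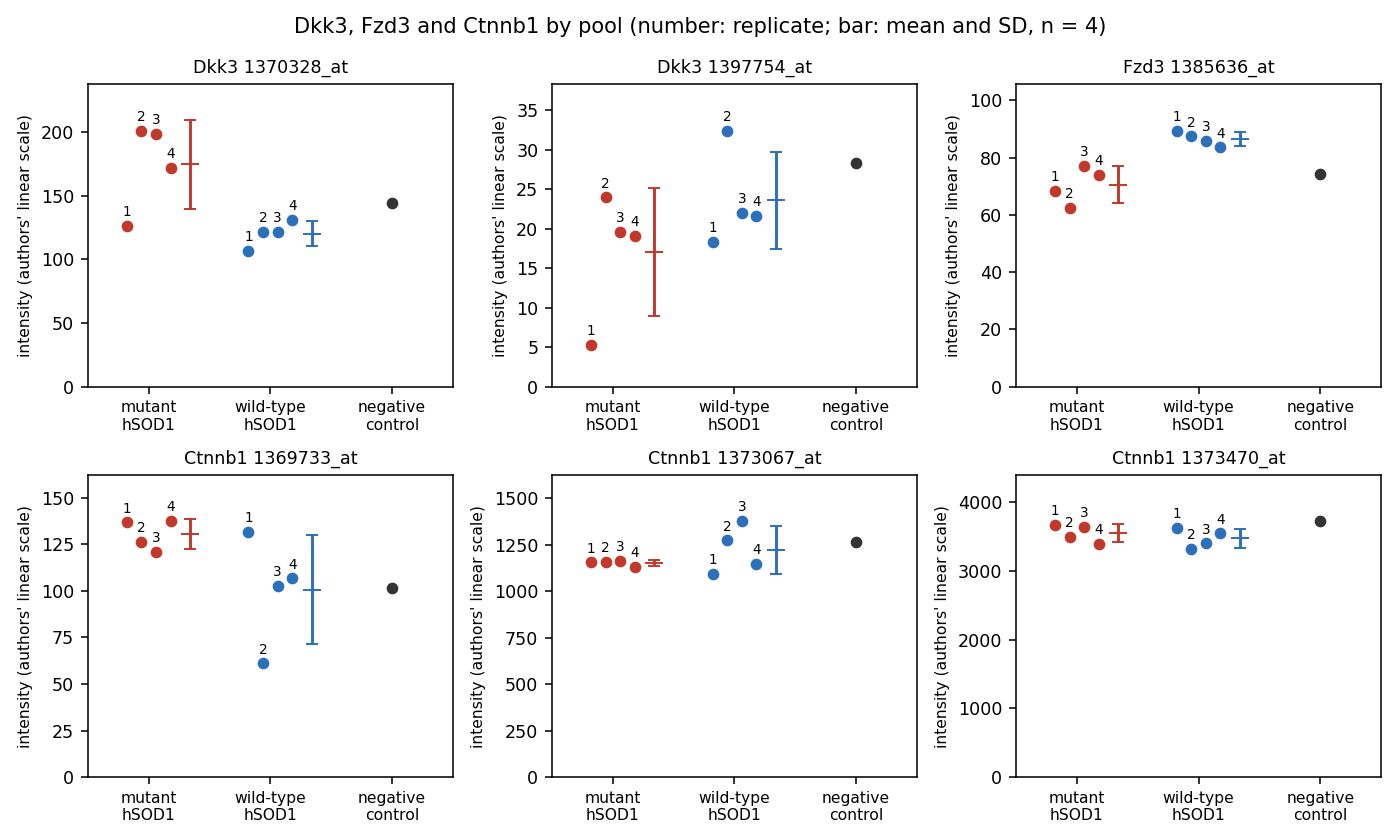
Intensity by pool for both tested probe sets of Dkk3, that of Fzd3 and the 3 tested ones of Ctnnb1 (linear axes from 0; points are pools numbered by replicate, bars the mean and SD of 4 pools). Mutant and wild-type pools are apart for Fzd3 alone; Dkk3 1370328_at and Ctnnb1 1369733_at have log2 differences of 0.49 and 0.39, against −0.39 for the other Dkk3 probe set and −0.08 and 0.03 for the other Ctnnb1 ones.

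Wif1, which binds Wnt proteins directly, had 144, 149, 205 and 140.1 in mutant pools, 149, 85.8, 182 and 166 in wild-type pools, with 167 in the negative control. Wild-type replicate 2 was the lowest of the 9 arrays, and the groups overlapped. The log2 difference was 0.16 (95% interval −0.27 to 0.58), but −0.06 without that array, 0.28 without wild-type replicate 3 and −0.24 when the actin ratio was added to the fit, so its sign is not settled. Sfrp1 varied least within groups: probe set 1371861_at had 39.0, 41.7, 39.96 and 43.2 in mutant pools, 36.3, 39.2, 37.6 and 35.4 in wild-type pools, with 38.5 in the negative control. Its log2 difference was 0.12 (−0.16 to 0.39). A second Sfrp1 probe set, 1383266_at, lay below the filter, with 7.84 to 11.6 in mutant pools, 2.30 to 7.49 in wild-type pools, with 12.01 in the negative control. These groups did not overlap, and the probe set is named because of that, after its values were seen. The share of probe sets without overlap was counted among tested ones only (2.95%), so this one has no share to be read against. Sfrp2, Sfrp4 and Frzb had estimates of −0.16, −0.24 and −0.24, each with an interval that spans 0. The below-filter probe sets of Frzb and Sfrp4 reached at most 22.4 and 17.0.

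Among cytoplasmic transducers, beta-catenin was measured by 4 probe sets, of which 3 passed the filter. Probe set 1373470_at had 3664, 3495, 3643 and 3392 in mutant pools, 3623, 3321, 3400 and 3546 in wild-type pools, with 3721 in the negative control. Its difference was the most tightly bounded of all members, 0.03 on the log2 scale with a 95% interval from −0.09 to 0.15. Probe set 1373067_at had 1154, 1157, 1162 and 1129 in mutant pools, 1093, 1273, 1376 and 1146 in wild-type pools, with 1266 in the negative control, a difference of −0.08 (−0.25 to 0.09). Neither of these showed a difference beyond the spread between pools.

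Probe set 1369733_at had 137, 126, 121 and 137 in mutant pools, 132, 61.1, 103 and 107 in wild-type pools, with 102 in the negative control. Wild-type replicate 2 was far below the others, and wild-type replicate 1 lay within the mutant range. The log2 difference was 0.39 (95% interval 0.0092 to 0.78, unadjusted p = 0.0455, limma adjusted p = 0.929). It was 0.19 without wild-type replicate 2, the array with the highest actin 3'/5' ratio, and 0.51 among the le2 pools. With the actin ratio in the fit it was 0.04. That ratio did not overlap between mutant and wild-type pools, so this fit cannot separate it from the group. The remaining Ctnnb1 probe set, 1375284_at, was under the filter with 0.473 to 8.02. Without the filter its log2 difference had the opposite sign, −0.49 (95% interval −0.89 to −0.09, limma adjusted p = 0.922). All its values lay below the pseudocount, which in part sets that size.

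In the destruction complex, Apc (1376629_at) had 457, 432, 388 and 472 in mutant pools, 535, 500.4, 458 and 453 in wild-type pools, with 399 in the negative control. The log2 difference was −0.15 (95% interval −0.35 to 0.05). A second Apc probe set, 1387837_at, gave 0.28 (−0.23 to 0.79), with wild-type replicate 2 at 8.03 and the other 7 transgenic pools between 21.3 and 31.0. Without that array its difference was 0.02, and without wild-type replicate 1 it was 0.44. Probe set 1379840_at did not exceed 5.30 on any array. Axin1 and Gsk3b, the scaffold and the kinase of the complex, had differences of −0.04 (−0.28 to 0.21) and 0.05 (−0.24 to 0.35). Dvl1, which relays the signal from the receptor, gave −0.06 (−0.32 to 0.20) and 0.05 (−0.17 to 0.28) on its tested probe sets. Another Dvl1 probe set lay below the filter, at 1.82 to 11.0.

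Axin2, a transcriptional target of the canonical pathway and its feedback inhibitor, lay below the filter on its 1 probe set. It had 2.66, 16.2, 5.79 and 15.1 in mutant pools, 19.8, 23.7, 7.06 and 8.39 in wild-type pools, with 9.22 in the negative control. The groups overlapped over most of their range, and without the filter the log2 difference was −0.35 (95% interval −1.04 to 0.35). Mutant replicate 1 was the lowest array and wild-type replicate 2 the highest.

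Of the TCF/LEF factors, only Tcf7l2 had a probe set above the filter. Probe set 1377156_at had 18.9, 69.7, 23.2 and 139 in mutant pools, 97.2, 48.4, 83.0 and 47.7 in wild-type pools, with 76.0 in the negative control. The mutant pools held both the highest and the lowest value of the 9 arrays. The log2 difference was −0.41 with a 95% interval from −1.35 to 0.53, and 0.11 among the le2 pools. Leaving out 1 array at a time moved it between −0.88 without mutant replicate 4 (interval −1.62 to −0.13, adjusted p = 0.933 in limma) and −0.06 without mutant replicate 1. The other 4 Tcf7l2 probe sets did not exceed 14.4 on any array. Among these, 1392592_at had 0.921 to 2.51 in mutant pools and 2.88 to 6.12 in wild-type pools, which did not overlap, with 3.30 in the negative control. For probe sets below the filter, such as this one, the share without overlap was not counted. Lef1 lay below the filter; its probe set 1383785_at had 22.3, 9.10, 10.3 and 15.5 in mutant pools, 13.7, 8.99, 10.1 and 5.65 in wild-type pools, with 3.04 in the negative control. All 8 transgenic pools lay above the negative control on that Lef1 probe set, while the other, 1370138_at, lay between 0.589 and 1.66 on all arrays.

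**Figure D4:**
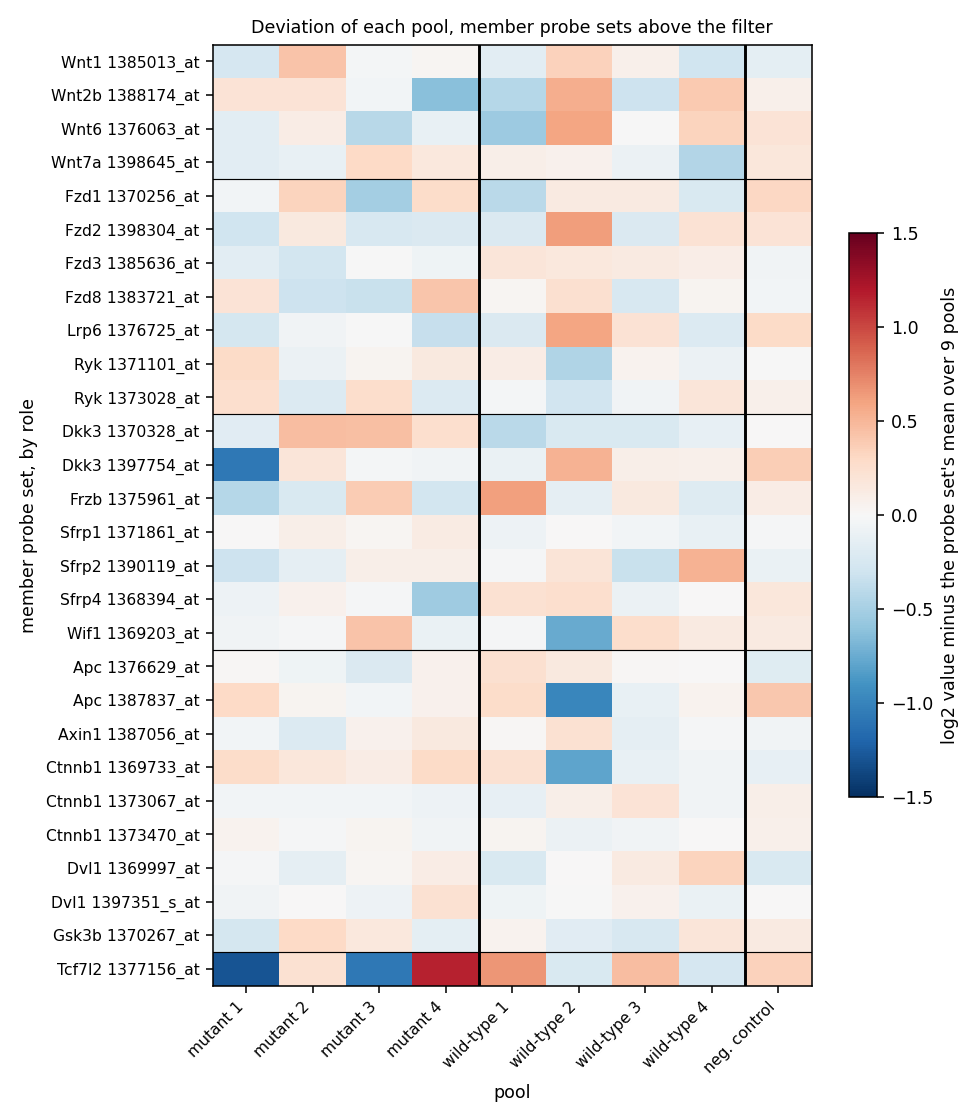
log2 value of each pool minus the probe set's mean over the 9 pools, for the 28 member probe sets above the filter, ordered by role (red higher, blue lower). Wild-type replicate 2 stands out in both directions, low for Ctnnb1 1369733_at, Apc 1387837_at and Wif1 and high for Wnt6, Fzd2 and Lrp6; Tcf7l2 varies most.

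Wild-type replicate 2 was the highest of the 9 arrays at 7 of the 28 members and the lowest at 6. Over all tested probe sets it was the highest at 19.7% and the lowest at 21.2%. It thus stood apart among the members about as often as across the array. Where a gene had more than 1 tested probe set, estimates between mutant and wild-type had the same sign for Ryk and opposite signs among the probe sets of Dkk3, Apc, Ctnnb1 and Dvl1.

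All 8 transgenic pools were then set against the negative control, a comparison with 1 control pool whose own spread is not measured. Of the 28 members 0 passed (limma, smallest adjusted p = 1.00), and 0 had an unadjusted p under 0.05, against 0% and 3.12% of all tested probe sets. Estimates were above 0 at 10 of 28 members, with a median of −0.09, and at 46.5% of all tested probe sets, with a median of −0.02. All 8 transgenic pools lay on 1 side of the negative control at 2 members, Ctnnb1 1373470_at and Apc 1387837_at, both lower, against 19.7% of all tested probe sets (10.5% with all 8 lower).

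Ctnnb1 1373470_at averaged 3510 ± 129 in the 8 transgenic pools (SD), against 3721 in the negative control, a log2 difference of −0.08 (95% interval −0.27 to 0.10). Apc 1387837_at averaged 23.6 ± 7.13 in transgenic pools, against 34.2 in the negative control, a difference of −0.46 (−1.22 to 0.31), while Apc 1376629_at averaged 462 ± 43.7 against 399, a difference of 0.20 (−0.10 to 0.50). Dvl1 1369997_at averaged 258 ± 32.1 against 213 (0.26, −0.13 to 0.65), and Fzd1 40.9 ± 10.3 against 53.0 (−0.35, −1.002 to 0.305). The intervals lay within 1 log2 unit of 0 at 24 of 28 members (92% of all tested probe sets).

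Each transgene set alone against the same negative control gave 0 of 28 members at an adjusted p of 0.05 and 0 at an unadjusted p under 0.05. Over all tested probe sets 0% passed after adjustment in either comparison, and 2.29% (mutant) and 4.28% (wild-type) had an unadjusted p under 0.05. These comparisons share the control array, whose title lacks the le2 tag that 6 of the 8 transgenic pools carry. For Dkk3 1370328_at, mutant minus negative control was 0.24 and wild-type minus negative control was −0.25. For Fzd3 they were −0.07 and 0.20, and for Ctnnb1 1369733_at 0.33 and −0.06. In these 3 probe sets the negative control thus lay between the group means for Dkk3 and Fzd3 and close to the wild-type mean for Ctnnb1.

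Of 109 other genes of the pathway on 7 lists, 89 had a probe set with 1 symbol. They were represented by 169 probe sets, of which 122 probe sets of 68 genes passed the filter. Of these 122, 0 passed after adjustment between mutant and wild-type, and 5 had an unadjusted p under 0.05, of which 2 were higher and 3 lower, against 4.93%, 2.75% and 2.18% of all tested probe sets. The genes given next are those of the smallest p on each list. Among planar cell polarity genes, which orient cells and cilia, 1 probe set of Cdc42 had the smallest p: 2940, 2952, 3061 and 2772 in mutant pools, 2351, 2297, 2578 and 2543 in wild-type pools, with 2328 in the negative control. The groups did not overlap, as at 2.95% of all tested probe sets, and the log2 difference was 0.26 (limma adjusted p = 0.667). How many of the 122 probe sets had no overlap was not counted. The other tested Cdc42 probe sets gave 0.06 and 0.01. Cdc42 is a small GTPase with many functions outside Wnt signalling. Ankrd6 on the same list had an estimate of −0.27 on 1 probe set, and −0.09 and 0.06 on the others.

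On the list of destruction complex and cytoplasmic regulators, 1 of 37 tested probe sets was higher and 1 lower at an unadjusted p under 0.05. Dact1, which binds dishevelled, had 455, 436, 495 and 450.0 in mutant pools, 394, 257, 406 and 401 in wild-type pools, with 481 in the negative control, a log2 difference of 0.35 (limma adjusted p = 0.929). The groups did not overlap (2.95% of all tested probe sets), and wild-type replicate 2 was again the lowest. The second Dact1 probe set gave 0.08 (−0.14 to 0.31). Csnk2a1, a casein kinase subunit, had an estimate of −0.39 on 1 probe set, and between −0.21 and 0.13 on the other 4 tested. On the Wnt secretion list 1 of 16 probe sets, of Rab8b, was lower (−0.32), while the other tested Rab8b probe sets gave 0.25 and 0.05, and Gpc4, a cell-surface proteoglycan, gave −0.32 (−0.64 to 0.0011). At an unadjusted p under 0.05 there were 0 probe sets among 27 of nuclear co-factors, 11 of commonly used beta-catenin target genes, 4 of other extracellular inhibitors and 2 of R-spondins and receptor turnover. On the target list, Ccnd1, which drives entry into the cell cycle, had an estimate of 0.73 with 18.6 to 46.5 in mutant pools, 4.56 to 50.6 in wild-type pools, with 29.8 in the negative control, so all mutant pools lay within the wild-type range. Of the genes that regulate Wnt receptors and extracellular Wnt, Znrf3 had an estimate of −0.32, Lgr4 0.22, Igfbp4 −0.23 and Apcdd1 0.15, and of the nuclear co-factors Tle4 had 0.18 and Tbl1x −0.19. The intervals of these 6 genes all span 0.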

How the data were processed

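Each array carried total RNA of a pool of embryos. The authors deposited linear intensities, 1 for each probe set on each array. The sources used here do not name their software. Scaling by the authors shows in the values: with 2% trimmed from each end, every array had a mean of 150.0. No further normalization was added. Of 31099 probe sets, 57 controls were left out and 31042 kept, of which 20826 have 1 symbol in the platform annotation.

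Intensities were taken to log2 with a pseudocount of 8.25 (the 25th percentile), filtered at the 40th percentile and fitted with limma 3.58.1 in R 4.3.3 (eBayes with trend), with p-values adjusted by Benjamini-Hochberg across the 18625 that passed, at a threshold of 0.05. Mutant and wild-type were compared on 8 arrays; comparisons with the negative control used all 9, the control being assumed to vary like the transgenic pools. The fit was tested on simulated data. The labels call the pools biological replicates; p-values measure the spread between pools.

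The members, roles and lists were chosen with earlier results of these data known. Named were, per role, the 4 members with the smallest p between mutant and wild-type and against the negative control, non-overlapping members, and Axin2, Lef1 and Ctnnb1, plus 2 probe sets per list of other genes; the remaining tested members are given by their estimates. Probe sets were not matched to a genome, so no positions are given.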

Additional observations from a re-analysis of the deposited data

Results flagged for a closer look

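In the named probe sets, 46 groups of 4 pools (23 probe sets, mutant and wild-type pools) were examined for a pool far from the others, where chance alone singles out about 1 in 20 groups; 2 were found. Fzd2 (1398304_at) had 24.9 in mutant replicate 2, against 16.1 to 17.6 in the other mutant pools; all 4 wild-type pools lay between 17.5 and 38.0. Wif1 (1369203_at) had 205 in mutant replicate 3, against 140.1 to 149 in the other mutant pools; wild-type replicate 3 was likewise the highest wild-type pool, at 182.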

How the results depend on the processing

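The number of members past the threshold stayed at 0 in each of the 4 comparisons under every alternative run. There were 22 alternatives for mutant against wild-type and 19 for each comparison with the negative control. Among them were other normalizations, pseudocounts of 2.06 and 33.0, and no filter or a stricter one at the 60th percentile. Others were an untrended or robust eBayes, 1 probe set per gene, the le2 tag, and leaving out each transgenic array in turn. The single negative control was never left out. The smallest adjusted p of a member between mutant and wild-type was 0.385, without mutant replicate 1. Over all probe sets, the 3 calls became 0 to 5 across these alternatives. Members with an unadjusted p under 0.05 numbered 1 to 7 between mutant and wild-type, with 7 of 72 when no filter was applied (5.33% of all 31042 probe sets), and 1 to 3 when 1 array was left out. Of the 23 named probe sets, 8 kept the sign of that difference throughout and 15 changed it at least once; none was called. Against the negative control 17 kept it with all 8 transgenic pools, 17 with the mutant pools alone and 15 with the wild-type pools alone. Members with an unadjusted p under 0.05 in those comparisons numbered 0 to 3, 0 to 2 and 0 to 3, the highest without a filter (3.74%, 3.34% and 4.74% of all probe sets); with the le2 tag as a covariate they were 1, 2 and 2 of 28 (3.59%, 3.11% and 4.39% of all). Same-numbered pools correlated by 0.12, 0.09, −0.07 and 0.20 in their departures from the group means, and differently numbered ones by −0.23 to 0.21. With so few pools, these values cannot decide whether the replicate numbers pair the pools. With a replicate block 0 members passed and 2 had an unadjusted p under 0.05 (6.5% of all), and Dkk3 1370328_at had a limma adjusted p of 0.457. With the actin ratio in the fit, chosen after results were known, 0 members passed, 1 had an unadjusted p under 0.05 (3.65% of all), and among others the signs of Wnt2b (0.17), Wnt6 (0.03), Fzd2 (0.06), Lrp6 (0.04), Wif1 (−0.24) and Apc 1387837_at (−0.18) turned; the ratio itself differs between the groups. Low signal limits 44 of the 72 probe sets.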

Other observations

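Against the negative control, a few other pathway genes had an unadjusted p under 0.05, and the genes named here were chosen after their values were seen. None passed after adjustment (0 of 122 probe sets in limma; 2 higher and 4 lower at an unadjusted p under 0.05, against 1.8% and 1.32% of all tested probe sets). Prickle1, a planar cell polarity gene, had 94.5 to 127 in mutant pools, 92.9 to 108 in wild-type pools, with 64.4 in the negative control. Myc, a proto-oncogene and target of many pathways, had 32.2 to 45.5 in mutant pools, 29.7 to 49.6 in wild-type pools, with 24.4 in the negative control. Lower with a transgene were the co-repressor genes Tle4, at 909 to 1084 in mutant and 801 to 944 in wild-type pools against 1189 in the negative control, and Tbl1xr1, at 57.9 to 62.7 in mutant and 53.4 to 59.6 in wild-type pools against 82.4 in the negative control. A second Tbl1xr1 probe set had 7.37 to 24.4 in transgenic pools and 34.6 in the negative control. Cdx2 had 20.3 to 33.4 in mutant pools, 19.2 to 26.5 in wild-type pools, with 39.6 in the negative control. Other probe sets of these genes did not all follow: the second tested one of Tle4 had a log2 difference between transgenic pools and the negative control of 0.11, and the remaining tested ones of Tbl1xr1 had 0.01 and −0.10. With 1 control pool, these values cannot separate the transgene from the pool.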
